A study of Mus musculus with 2 samples.

Results

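The urokinase system was described on 2 arrays, 1 of mouse embryonic stem cells labelled Mof null and 1 of cells labelled Mof wild type, through the probe sets that name Plau, Plaur, Plat or Serpine2 as their single gene. Of the 4 genes, 3 had such a probe set, and these genes held 5 of the 34945 probe sets that name 1 gene, with 2 for Plau, 2 for Plat and 1 for Plaur. Serpine2, a serpin known as protease nexin 1, is not analysed here, because the probe annotation used listed no probe set for it. The genes were chosen with their values on these arrays known, so their own differences are given as a description.

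Cells of the Mof null line carried the genotype MOF-/- and those of the wild type line MOF +/+. Mof is an enzyme that acetylates histone H4, and its gene symbol is Kat8. Both lines were of the C57BL/6 strain, came from embryos at day 3.5 post coitum, were at passage 15 to 18, and had been kept with LIF on feeders of mouse embryonic fibroblasts. They were then grown for 2 passages without feeders before total RNA was extracted. The sources used here do not give how the allele was made or whether each line was 1 clone. With 1 array per genotype there was no replicate error and no test, and every direction below depends on the labels. Values are RMA values on a log2 scale, a difference is the value on the Mof null array minus that on the wild type array, and a fold is 2 raised to the size of the difference.

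Urokinase (uPA, from Plau) and tissue plasminogen activator (tPA, from Plat) are secreted serine proteases that cut plasminogen into plasmin, a broad protease that degrades fibrin and matrix proteins and activates latent growth factors and metalloproteinases. The urokinase receptor (uPAR, from Plaur) is a protein of the Ly6/uPAR (LU domain) family, anchored to the membrane by a lipid, that holds urokinase at the cell surface. Serpins inhibit both activators by trapping them in a covalent complex, which receptors of the LDL receptor family take up. Fibroblasts and macrophages are known sources of urokinase and its receptor, and in the early mouse embryo visceral endoderm makes urokinase while parietal endoderm makes tPA.

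The promoter window of Plaur is shown because it was the only one of the 3 measured genes found in the RefSeq promoter table, and because it holds a match to the AP-1 motif, the binding sequence of Jun and Fos proteins whose transcripts are described below. The window lies at chr7:24462233-24462532 on the + strand of GRCm38.p6, with 250 bases before and 50 bases after an annotated start, and is printed 5′ to 3′ with the AP-1 match in capitals.
Plaur promoter: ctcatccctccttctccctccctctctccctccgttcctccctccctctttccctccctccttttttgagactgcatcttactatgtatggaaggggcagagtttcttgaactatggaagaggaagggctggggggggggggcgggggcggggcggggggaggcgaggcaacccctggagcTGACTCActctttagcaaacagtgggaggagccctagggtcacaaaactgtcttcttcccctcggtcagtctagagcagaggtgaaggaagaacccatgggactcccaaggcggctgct
The RefSeq gene record of Plaur begins upstream of this window, so the start used is not the first base of that record. The AP-1 motif was searched as TGACTCA on both strands, and the match began at -69 relative to the start, on the + strand. Of 32851 such windows in the RefSeq table, 5.20% held a TGACTCA on either strand. The GC box GGGCGG, the core of the sequence bound by Sp1, occurred 3 times in the Plaur window, at -111, -105 and -100, where the last pair share 1 base. At least 1 GGGCGG was present in 35.7% of all windows. No match to the CRE motif TGACGTCA, the Ets motif CCGGAA, the box motif TATAAA or the NF-kB motif was found on either strand of this window, and they were in 1.79%, 14.9%, 13.6% and 0.155% of all windows. These matches are descriptions of the letters and were not measured as binding sites.

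Transcripts of both plasminogen activators and of the urokinase receptor were lower on the Mof null array than on the wild type array. Plau (Entrez gene 18792), the urokinase gene, read 4.76 on the Mof null array and 8.02 on the wild type array with its brighter probe set, 1422139_at. The difference of -3.26 corresponds to 9.56-fold lower. Its other probe set, 1422138_at, read 5.25 on the Mof null array and 6.98 on the wild type array, a difference of -1.72 or 3.30-fold. Both Plau probe sets therefore pointed the same way, and their differences lay 1.53 log2 units apart, against a pooled SD of 0.33 between expressed probe sets of the same gene. On the Mof null array both were under 6.02, the median of all values that served as the expression threshold. Plau passed the filter through the wild type array alone, and RMA compresses differences near the floor. In bulk RNA, fewer cells that express a gene and less RNA of it per cell cannot be told apart.

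Plat (Entrez gene 18791), the tPA gene, read 8.55 on the Mof null array and 10.26 on the wild type array with probe set 1415806_at. That difference of -1.71 is 3.27-fold lower, with both values above the threshold. A second Plat probe set, 1458553_at, read 4.50 on the Mof null array and 4.64 on the wild type array, a difference of -0.14. It was below the threshold on both arrays, so only the first probe set gave an expressed value for Plat. With the mean of both probe sets Plat differed by -0.93 and no longer passed the 2-fold rule.

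Plaur (Entrez gene 18793), the urokinase receptor gene, read 9.25 on the Mof null array and 10.04 on the wild type array with its single probe set, 1452521_a_at. The difference of -0.79, or 1.73-fold lower, stayed under the 2-fold rule that Plau and Plat passed. The receptor was thus lower by less than either activator on the probe sets with the highest mean. The suffix _a_at marks a probe set that can read several transcripts of 1 gene.

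**Figure D1:**
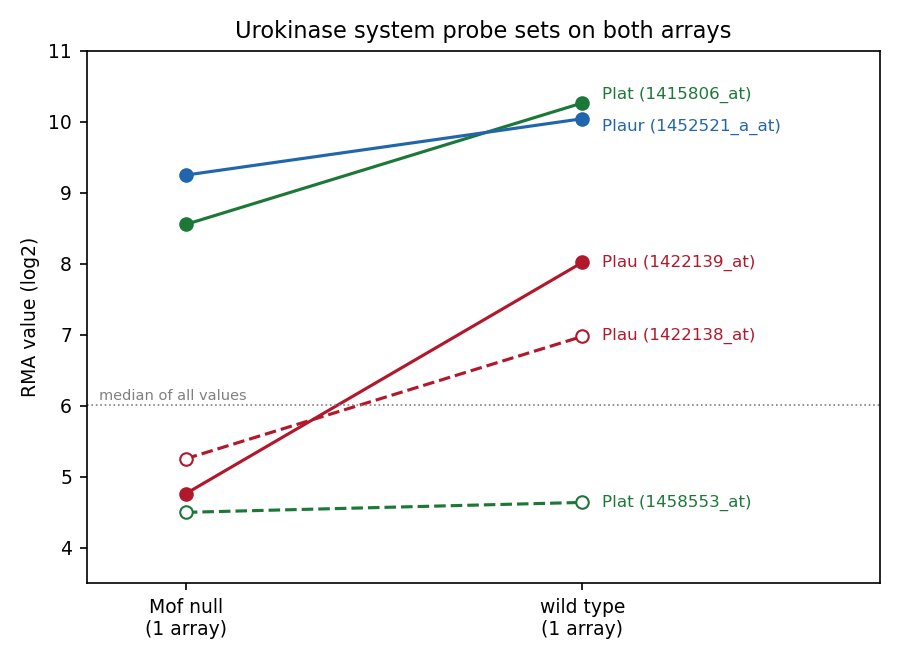
RMA values (log2, vertical axis) of the 5 probe sets of Plau, Plat and Plaur on the Mof null array and the wild type array, with lines joining the same probe set, filled points for the probe set of each gene with the highest mean and open points for the others. Every line is lower at the Mof null end, the Plau probe sets cross the median of all values (dotted, 6.02), and levels of different probe sets are not comparable with each other.

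Against the whole table, Plau stood near the end of the lower side. Of 12015 expressed genes, taking for each gene the probe set with the highest mean, 1429 (11.9%) were lower by 2-fold or more on the Mof null array and 611 (5.09%) were higher by that much. Relative to the embryonic stem cell markers described below, 2946 were lower by 2-fold or more and 89 higher. Plau and Plat belonged to the lower genes, and Plau also to the 389 genes (3.24%) that were at least 4-fold lower. Only 6 expressed genes had a more negative difference than Plau, while 629 had a more negative difference than Plat and 1821 than Plaur. The place of Plau rests on its brighter probe set. The other, 1422138_at, differed by -1.72, which is under 4-fold, and 4.66% of expressed probe sets had a more negative difference. These ranks describe genes picked with the differences in view, so nothing further is read from them.

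The spread of genes at a similar mean level is given for scale. Of 1764 expressed genes within 0.5 log2 units of the mean level of Plau on its brighter probe set, 1 had a more negative difference. Their 10th and 90th percentiles were -1.14 and 0.74. Around Plat there were 2408 such genes, of which 101 (4.19%) had a more negative difference. Around Plaur there were 2309, of which 282 (12.2%) had a more negative difference, and their 10th percentile of -0.93 lay below the Plaur value.

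**Figure D2:**
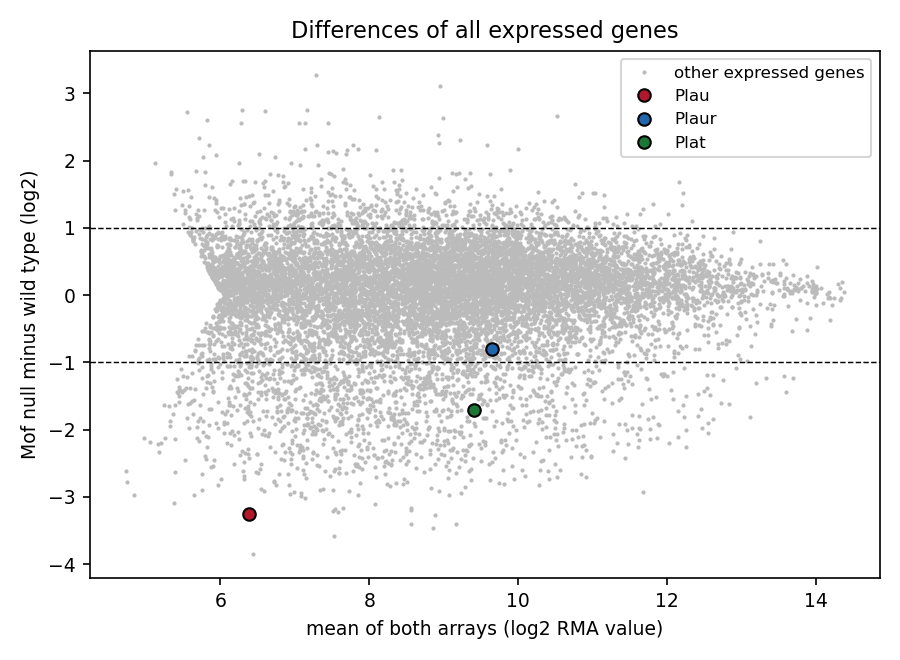
Difference between the Mof null and wild type arrays (log2, vertical axis) against the mean of both arrays (log2 RMA value, horizontal axis) for the 12015 expressed genes in grey, with Plau, Plaur and Plat coloured and dashed lines at 2-fold. Plau lies at -3.26 near the low end of the level range, Plat at -1.71 lies below the lower dashed line and Plaur at -0.79 lies inside it. The other Plau probe set, with a difference of -1.72, is not drawn.

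The genes with the most similar pair of values were found by Euclidean distance over the 2 arrays. With only 2 values per gene, this measure says that a gene has a similar level and difference and nothing more. Nearest to Plau were the chemokine genes Ccl12 (distance 0.34) and Ccl3 (0.38) and the zinc finger gene Zfp521 (0.37). Nearest to Plat were Loxl3 (0.033), a lysyl oxidase gene, Gng12 (0.047), a G protein subunit gene, and Cast (0.072), the calpain inhibitor gene. Nearest to Plaur were C330007P06Rik (0.025), Papss1 (0.039) and Bcl2l2 (0.048).

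The substrate and the proteins that bind it at the surface came next in the pathway. Of 10 measured genes for plasminogen, its receptors and related kringle or contact proteases, 5 were expressed. Of these, 3 were 2-fold or more lower and none that much higher, against 11.9% and 5.09% of all expressed genes. The median difference was -1.17 against 0.10 over all expressed genes. Plasminogen itself (Plg) was under the threshold on both arrays, at 5.39 on the Mof null array and 5.14 on the wild type array. Anxa2, the annexin that binds plasminogen and tPA, read 11.5 on the Mof null array and 13.5 on the wild type array, 3.92-fold lower, while another of its probe sets differed by -0.81. Its partner S100a10 was 2.24-fold lower, with probe sets between -1.62 and -0.96. Plgrkt, a transmembrane plasminogen receptor, was 3.10-fold lower, at 7.83 on the Mof null array and 9.46 on the wild type array. St14, the gene of the membrane protease matriptase, went the other way with 9.94 on the Mof null array and 9.28 on the wild type array, 1.58-fold higher.

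Inhibitors of the pathway went both ways. Of 12 measured inhibitors besides Serpine2, 10 were expressed, of which 3 lay below and 3 above the 2-fold limits, against 11.9% and 5.09% of all expressed genes, and the median was 0.13, or -0.47 relative to the embryonic stem cell markers. Serpinb2, the gene of plasminogen activator inhibitor 2, read 5.88 on the Mof null array and 7.83 on the wild type array, 3.85-fold lower, and passed the filter through the wild type array alone. Tfpi2, a Kunitz inhibitor of plasmin, read 8.45 on the Mof null array and 10.61 on the wild type array and had the largest absolute difference of the group at -2.16. A2m, a broad protease trap, was 4.15-fold higher but passed the filter through the Mof null array alone, at 7.76 on that array and 5.71 on the wild type array. Spint2, a Kunitz inhibitor of membrane serine proteases, was 2.32-fold higher, at 12.06 on the Mof null array and 10.85 on the wild type array. The related Spint1, which inhibits matriptase and was the other 2-fold higher gene of the group, was 2.09-fold higher. Serpinb6a, an intracellular serpin, was the other lower one, at 2.30-fold.

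The wider serpin family was mostly lower among its expressed members. Of 40 measured genes with a Serpin symbol, 14 were expressed. Of these, 8 were 2-fold or more lower and 1 was that much higher, against 11.9% and 5.09% of all expressed genes. Their median was -1.36 against 0.10 over all expressed genes. The 8 include Serpinb2. The largest differences were those of Serpinb6b at -2.90, Serpinb9 at -2.79, Serpinb9b at -2.73 and Serpina3n at -2.41. Serpinb9, the granzyme B inhibitor, read 6.96 on the Mof null array and 9.76 on the wild type array, and its 2 expressed probe sets differed by -2.79 and -2.62. The mouse Serpinb6, Serpinb9 and Serpina3 groups hold related genes, so signal of 1 gene may be read by the probes of another, which was not tested. Among their expressed genes this family and the inhibitors above share Serpinb2, Serpinb6a, Serpinf2, Serping1 and Serpini1. Serpinb6c was the only expressed family member at least 2-fold higher, at 1.02.

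Receptors that clear the inhibited activators split by gene. Of 16 expressed genes for clearance receptors and surface partners of the urokinase receptor, 10 passed 2-fold on the lower side and 2 on the higher side, against 11.9% and 5.09% of all expressed genes, and the median was -1.03. When the probe sets of each gene were averaged, 5 passed on the lower side and 1 on the higher side. Lrp1, the main clearance receptor for inhibited urokinase, read 10.12 on the Mof null array and 11.86 on the wild type array, 3.35-fold lower, and another probe set differed by -0.90. Lrp2 (megalin), a related receptor of absorptive epithelia, read 10.70 on the Mof null array and 8.46 on the wild type array, 4.71-fold higher, with both probe sets above 2 log2 units. Sorl1, a sorting receptor that also binds urokinase, was 2.19-fold higher with its brightest probe set, while another differed by 0.22. Caveolin gene Cav1 had the largest difference of the group at -2.32, and the growth factor receptor gene Egfr differed by -1.86 with its brightest probe set and by 0.26 with another. The macrophage integrin gene Itgam, at 4.81 on the Mof null array and 6.64 on the wild type array, passed the filter through the wild type array alone.

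Proteins activated by plasmin or the activators were lower throughout the expressed part of the list. Of 13 measured genes, 11 were expressed and all 11 were lower by 2-fold or more on the Mof null array, against 11.9% of all expressed genes, and their median was -1.82. Another 2, Hgf and Mst1, were under the threshold on both arrays. Pdgfd, whose product urokinase can activate, read 5.18 on the Mof null array and 7.83 on the wild type array, a difference of -2.64. Tgfb1, the gene of a latent growth factor, read 6.31 on the Mof null array and 8.88 on the wild type array, a difference of -2.57. The collagenase gene Mmp13 and the stromelysin gene Mmp3 differed by -2.22 and -2.20. Pdgfd, Mmp13 and Tgfb2 passed the filter through the wild type array alone, so their inclusion depended on the array on which they were higher.

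Relatives of the urokinase receptor gave no common direction. Of 14 measured LU domain genes other than Plaur, 5 were expressed. Of these, 1 passed 2-fold on the lower side and 1 on the higher side, against 11.9% and 5.09% of all expressed genes. Their median was -0.35. Ly6k was 3.46-fold higher, at 8.90 on the Mof null array and 7.11 on the wild type array. Ly6e was 2.09-fold lower and differed by -0.12 on another probe set. Lynx1 lay just inside the 2-fold rule on its brightest probe set, at 7.61 on the Mof null array and 8.61 on the wild type array. Another Lynx1 probe set differed by -1.46. The complement inhibitor gene Cd59a differed by -0.35, and by -0.029 on another probe set.

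Of 6 expressed AP-1 genes, 5 were lower by 2-fold or more on the Mof null array, against 11.9% of all expressed genes. These 6 are part of the transcription factor list that follows and were not planned as a list of their own. Of 11 expressed transcription factor genes known at the urokinase or urokinase receptor promoters, 7 were lower by 2-fold or more, against 11.9% of all expressed genes, and none was higher by as much, for a median of -1.20 against 0.10. Jun read 7.84 on the Mof null array and 10.48 on the wild type array, 6.26-fold lower, and its other expressed probe set differed by -2.48. Fosl1, an AP-1 partner of Jun, read 7.23 on the Mof null array and 9.75 on the wild type array, 5.72-fold lower. Fosl2 was lower by 2.30 log2 units on its brightest probe set but differed by 0.083 on another. Ets1 was 3.65-fold lower, with another probe set at -0.56. Jund, Etv4 and Sp1 differed by 0.18, 0.25 and 0.64 on their brightest probe sets, and the first pair turn negative relative to the embryonic stem cell markers. Another Etv4 probe set differed by -0.62. Whether any of these factors bears on Plau or Plaur was not tested.

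**Figure D3:**
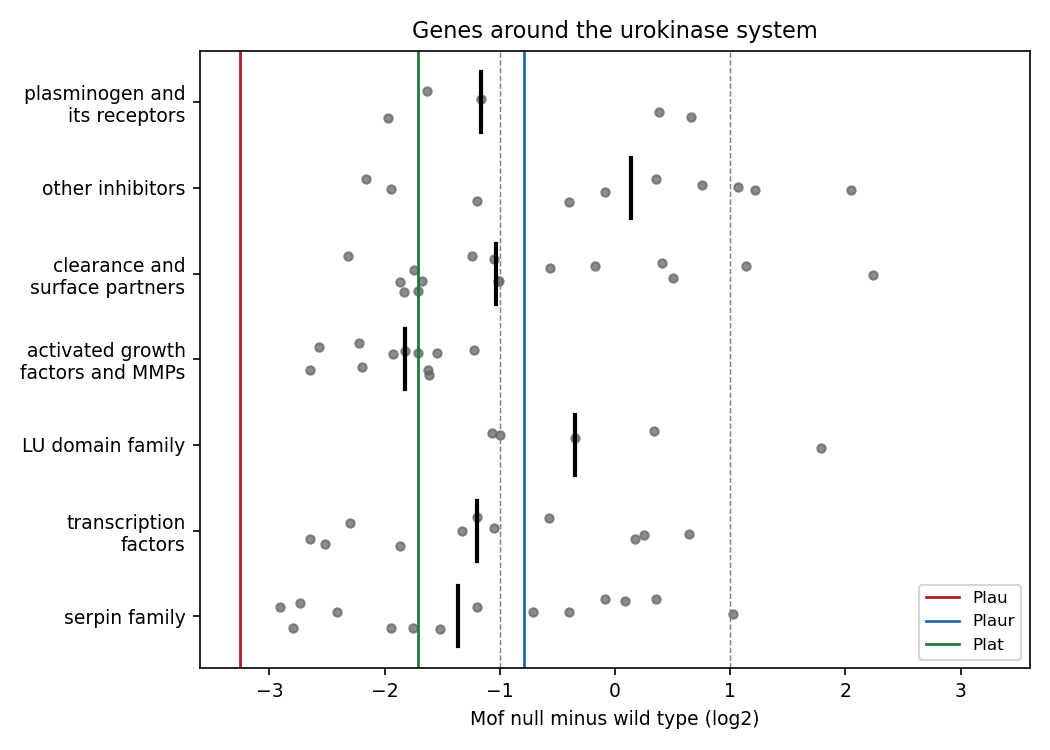
Difference between the Mof null and wild type arrays (log2, horizontal axis) for the expressed members of 7 gene lists (1 row each, grey points, vertical jitter without meaning), with black bars at list medians, coloured lines at Plau, Plaur and Plat and dashed lines at 2-fold. The 11 growth factor and metalloproteinase genes all lie left of the lower dashed line, while the inhibitors spread from -2.16 to 2.05.

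Markers of fibroblasts and macrophages moved in the same direction as the urokinase system. All 21 expressed fibroblast markers were lower on the Mof null array, against 5168 of all 12015 expressed genes. Of the 21 markers, 20 were at least 2-fold lower, against 11.9% of all expressed genes, and the median of the 21 was -2.06. Their summed linear level was 41562.5 units on the Mof null array and 138876 on the wild type array, with none under 6.50 on the Mof null array or 8.66 on the wild type array. The collagen gene Col1a1 read 10.21 on the Mof null array and 13.1 on the wild type array, and Col1a2 read 13.0 and 14.2 in the same order. The 18 expressed of 19 macrophage markers were lower as well, 17 of them at least 2-fold, against the same shares of all expressed genes. Their median was -2.08, with summed levels of 6176 units on the Mof null array and 22141 on the wild type array. Csf1r, the macrophage growth factor receptor gene, read 7.65 on the Mof null array and 9.81 on the wild type array, Itgam was at 4.81 and 6.64 in that order, and Aif1 was under the threshold on both arrays. Itgam, Ptprc and Fcgr1 passed the filter through the wild type array alone, so their inclusion depended on the array on which they were higher. The part of either cell type in the values of the urokinase system was not tested.

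The place of Plau among these markers depended on the probe set. No expressed fibroblast or macrophage marker had a more negative difference than the brighter Plau probe set, which was under the threshold on the Mof null array. With the other Plau probe set, 17 of 21 fibroblast markers and 15 of 18 macrophage markers did. For Plat the counts were also 17 and 15. For Plaur they were 21 of 21 and 17 of 18. With the brightest probe set of each marker, the receptor lay closer to 0 than every fibroblast marker and than every macrophage marker but Laptm5, which differed by -0.13. Another expressed probe set of the fibroblast marker Pdgfra differed by -0.28.

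Markers of the labelled cell type went the other way, and those of endoderm were divided. All 20 embryonic stem cell markers were expressed and higher on the Mof null array with their brightest probe sets, with a median of 0.61. Over all 12015 expressed genes, 5168 were lower and the median was 0.10. At least 2-fold higher were 3 of the 20 markers, against 5.09% of all expressed genes. Klf2 and Klf4 differed by only 0.018 and 0.025, and Tbx3 by 0.12, with another probe set at -0.80. Pou5f1, Sox2 and Nanog, the core pluripotency genes, read 12.7, 12.8 and 12.7 on the Mof null array and 12.2, 12.05 and 11.9 on the wild type array. Relative to the median of the embryonic stem cell markers Pou5f1 differed by -0.083, Plau by -3.87, Plat by -2.32 and Plaur by -1.40. Of 18 expressed markers of visceral or parietal endoderm, 10 were higher by 2-fold or more and 1 was lower by as much. Over all expressed genes these shares were 5.09% and 11.9%. The median of the 18 was 1.03. Of the 10, Apoa1 and Hnf4a passed the filter through the Mof null array alone. Another 4, the matrix genes Col4a1, Col4a2, Lamb1 and Sparc, differed by -0.30, -0.53, -0.20 and -0.51, and the summed level of the 18 was 43977.5 units on the Mof null array and 46455.4 on the wild type array. The visceral endoderm genes Amn and Cubn were 8.65-fold and 6.34-fold higher. Thbd (thrombomodulin), a surface receptor of thrombin, was the lower one, at 9.21 on the Mof null array and 11.09 on the wild type array. Endothelial markers were expressed for 5 of 10 genes. Of these, 2 passed 2-fold on the higher side and none on the lower side, against 5.09% and 11.9% of all expressed genes.

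The transcript of the targeted gene was not lower on the Mof null array. Kat8 read 8.37 on the Mof null array and 8.06 on the wild type array, a difference of 0.31, or -0.30 relative to the embryonic stem cell markers. The sources used here do not say which part of the gene the allele alters, so this value does not check the labels.

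**Figure D4:**
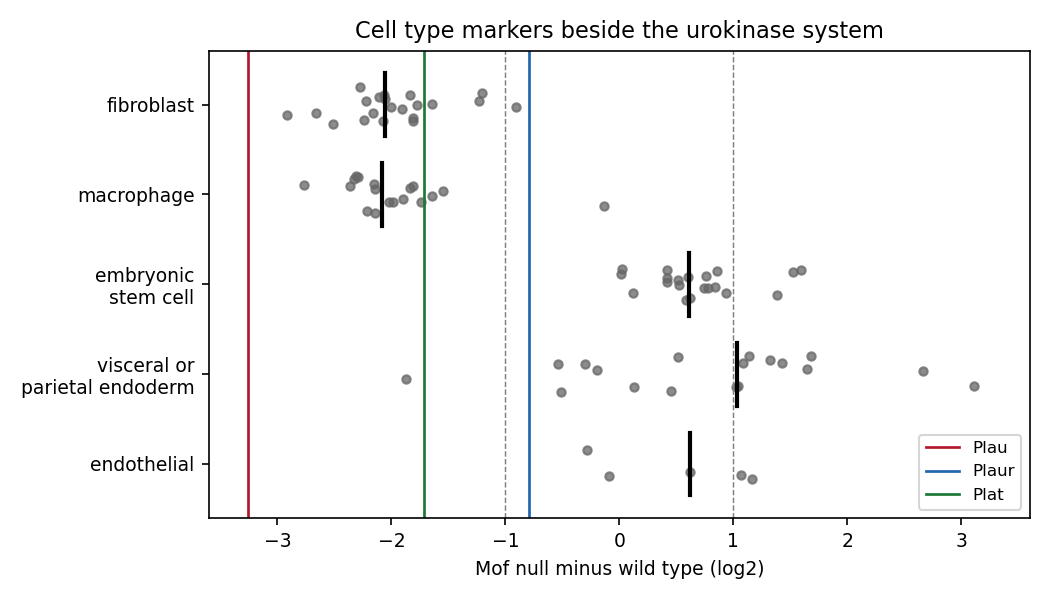
Difference between the Mof null and wild type arrays (log2, horizontal axis) for the expressed markers of 5 cell types (1 row each, grey points, vertical jitter without meaning), with black bars at list medians, coloured lines at Plau, Plaur and Plat and dashed lines at 2-fold. Fibroblast and macrophage medians lie at -2.06 and -2.08, between Plat and the brighter Plau probe set, and the embryonic stem cell median lies at 0.61.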

How the data were processed

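The deposited table holds log2 values of 45101 probe sets on 2 arrays, which the authors made with RMA (affy, R 2.10.0), per the submitters' processing notes. That the scale is log2 was judged from the range (2.85 to 14.7 on the Mof null array, 2.77 to 14.6 on the wild type array) and the medians (6.01 and 6.02 in that order). RMA quantile-normalizes arrays, so a shift of most transcripts in 1 direction cannot be seen. The sources used here do not say whether other arrays entered the run. Their number, 1 per genotype, limits the precision, and no test was run.

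Names came from the platform annotation, which listed 35890 probe sets and left 9211 unnamed here. Probe sets with 1 symbol and 1 Entrez ID were used, and 34741 of 34945 IDs were found in the RefSeq table of GRCm38.p6, used for names. A gene took its probe set with the highest mean (brightest). A gene was expressed where the higher value reached 6.02, the median (percentile 50) of all values. The call rule was an absolute difference of at least 1 (2-fold).

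The members and lists were chosen with earlier results of these data known. Named genes are the members, up to 4 expressed genes of each list with the largest absolute differences, the 3 nearest genes of each member, and Pou5f1, Sox2, Nanog, Col1a1, Col1a2, Csf1r and Kat8. Plg, S100a10, St14, Lrp1, Sorl1, Serpinb6a, Spint1, Serpinb6c, Itgam, Hgf, Mst1, Tgfb2, Aif1, Ptprc, Fcgr1, Laptm5, Pdgfra, Klf2, Klf4, Tbx3, Apoa1, Hnf4a, Col4a1, Col4a2, Lamb1, Sparc, Thbd, Jund, Etv4, Sp1 and the genes of the other observations were named after their values were seen. Cpb2, Eno1, Cd59b, Ly6a, Ly6c1, Ly6c2, Nfkb1, Fbn1 and F2rl1 had no listed probe set under these symbols and are not analysed here. Linear sums are of 2 raised to the log2 values. Counting was tested on simulated differences. Software was pandas 2.3.3, numpy 2.4.6, statsmodels 0.14.6 and matplotlib 3.10.9 under Python 3.11.15.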

Additional observations from a re-analysis of the deposited data

How the results depend on the processing

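Plau, Plat and Plaur were lower on the Mof null array under every alternative that gave them a value. With the mean of all probe sets, Plau differed by -2.49 and Plat by -0.93, which is under 2-fold, since the dimmer probe sets enter the mean. Plaur has no value without probe sets of suffix _s_at, _x_at or _a_at, and the serpin median was then -1.85. Differences taken relative to the embryonic stem cell markers lower every gene by the same amount and gave -3.87 for Plau, -2.32 for Plat and -1.40 for Plaur, with 2946 genes at least 2-fold lower and 89 higher. List medians under that scaling were -1.78 for plasminogen and its receptors, -0.47 for the inhibitors, -1.64 for clearance and surface partners, -2.43 for activated growth factors and metalloproteinases, -1.80 for transcription factors, -1.97 for serpins and -0.95 for the LU domain family. With no filter on level, the plasminogen median was 0.078, the LU domain median 0.059 and the serpin median -0.014, since genes near the floor on both arrays enter. A filter at percentile 75 left 926 lower and 347 higher genes. A threshold of 1.5-fold counted 2303 lower and 2084 higher genes, and one of 4-fold counted 389 lower and 35 higher. The other main values moved by less than 0.33, the pooled SD between probe sets of a gene, or, as counts, by at most 1.5 times. Counts of list members past 2-fold moved by more than 1.5 times in these cases. The mean of all probe sets gave 5 lower and 1 higher clearance and surface partners (against 10 and 2) and 0 higher LU domain genes (against 1). The filter at percentile 75 left 5 lower growth factor and metalloproteinase genes (against 11). Relative to the embryonic stem cell markers, 1 clearance gene (against 2) and 1 inhibitor (against 3) were higher. The LU domain family had 2 lower genes (against 1) under centring, trend removal and that scaling, and the 1 higher serpin was lost under these 3 settings, at percentile 75 and without probe sets of the 3 suffixes. The 1.5-fold threshold gave 1 higher gene each among plasminogen receptors and transcription factors (against 0) and 2 lower LU domain genes. At 4-fold the lower counts were 0 for plasminogen receptors, 1 for inhibitors, 1 for clearance partners, 4 for growth factors and metalloproteinases, 0 for the LU domain family, 3 for transcription factors and 4 for serpins, and the higher counts were 1 for inhibitors, 1 for clearance partners and 0 for the LU domain family and serpins. No paired analysis was possible because each genotype has 1 array, and no array could be left out.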

Other observations

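A further list of 12 proteases and receptors at the cell surface or in lysosomes, written after the values above had been seen, held 8 expressed genes. Of these, 3 were lower and 1 higher by 2-fold or more on the Mof null array, against 11.9% and 5.09% of all expressed genes. The median was -0.92 against 0.10 over all expressed genes. Met, the receptor of hepatocyte growth factor, read 6.74 on the Mof null array and 8.51 on the wild type array, 3.41-fold lower. Procr, the protein C receptor gene, was 2.56-fold lower, at 9.31 on the Mof null array and 10.67 on the wild type array. Ctsb, the gene of cathepsin B, a protease able to activate the urokinase precursor, was 2.28-fold lower on its brightest probe set, while its 5 expressed probe sets ran from -1.81 to 0.26. Prss8 (prostasin), an epithelial membrane protease, was 2.76-fold higher, at 7.08 on the Mof null array and 5.62 on the wild type array, and passed the filter through the Mof null array alone. The tissue factor gene F3 and the thrombin receptor gene F2r stayed under 2-fold on their brightest probe sets, with differences of -0.81 and -0.93. Another F2r probe set differed by -1.18.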
